A study of Mus musculus with 6 samples.

Results

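The 10 genes described here are the core of the myostatin and activin pathway as it is measured in muscle: the ligands Mstn and Gdf11, the follistatin family genes Fst, Fstl1 and Fstl3, the receptors Acvr2a, Acvr2b and Acvr1b, and the signal carriers Smad2 and Smad3. They were chosen by name, and all 10 were found among the 14617 genes of the authors' deposited table. RNA was sequenced from tibialis anterior, a fast muscle of the lower leg, of Prmt7-/- mice (KO) and Prmt7+/+ mice (WT), all of the C57BL/6 strain and 8 months old, with 3 mice named per genotype. Prmt7 encodes an arginine methyltransferase, and the deleted part of the gene, and the cells it was deleted in, are not labelled. The deposited values are means per genotype, and each could be taken apart into whole read counts of exactly 2 libraries, numbered 1 and 2 within each genotype here, which cannot be tied to individual mice. No header names the genotype of a column: from the name of the table the leading column was read as WT and the other as KO, and every direction depends on that reading.

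Myostatin is a secreted protein of the TGF-beta superfamily that muscle fibres make and that restrains muscle growth; animals without it have enlarged muscles. Myostatin, GDF11 and the activins are made as inactive precursors that proteases cut, and the mature ligand binds a type II receptor, ACVR2A or ACVR2B. The type II receptor then activates a type I receptor such as ACVR1B (ALK4), which phosphorylates SMAD2 and SMAD3 so that they enter the nucleus with SMAD4. Follistatin (FST) and FSTL3 bind the ligands and keep them from their receptors. FSTL1 shares a follistatin-type domain but is best known as a glycoprotein secreted by connective tissue and muscle cells, not as an activin antagonist.

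The start-site regions of 3 members are shown: Fstl1 and Smad3, which are close in base composition, and Mstn, which differs from both. They are taken from RefSeq on GRCm38.p6 and run from 250 bases before to 50 bases after the start of transcription; capitals mark CAGAC or its reverse complement GTCTG, the short letters that SMAD3 is known to bind. Mstn lies at chr1:53061390-53061689 on the plus strand, Fstl1 at chr16:37776805-37777104 on the plus strand, and Smad3 at chr9:63757945-63758244 on the minus strand.
Mstn: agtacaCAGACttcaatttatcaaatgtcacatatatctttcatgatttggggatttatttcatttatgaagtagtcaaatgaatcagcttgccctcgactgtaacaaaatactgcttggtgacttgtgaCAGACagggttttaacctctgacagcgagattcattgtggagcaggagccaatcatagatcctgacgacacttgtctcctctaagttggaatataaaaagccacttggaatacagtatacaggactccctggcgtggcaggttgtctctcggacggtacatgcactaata
Fstl1: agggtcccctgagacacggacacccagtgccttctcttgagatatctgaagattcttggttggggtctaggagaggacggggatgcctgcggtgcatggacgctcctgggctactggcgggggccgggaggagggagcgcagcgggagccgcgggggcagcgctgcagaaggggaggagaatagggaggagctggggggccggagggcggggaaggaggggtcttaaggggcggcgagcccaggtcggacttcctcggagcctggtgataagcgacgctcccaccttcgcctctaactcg
Smad3: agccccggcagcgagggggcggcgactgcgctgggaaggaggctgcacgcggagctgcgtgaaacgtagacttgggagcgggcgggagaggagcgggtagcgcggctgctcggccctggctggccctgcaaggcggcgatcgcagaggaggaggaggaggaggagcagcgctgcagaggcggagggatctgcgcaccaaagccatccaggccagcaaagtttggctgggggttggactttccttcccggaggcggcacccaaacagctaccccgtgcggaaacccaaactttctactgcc

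The Mstn window was poor in G and C at 41.3%, against 66.7% for Fstl1, 67.7% for Smad3 and a median of 52.7% over all 32817 windows of that table. It held 2 CAGAC matches, a TATAAA match whose leading base lies at position -29, and 4 matches to CANNTG, the E-box bound by myogenic factors such as MyoD. In Fstl1 and Smad3 none of these 3 motifs was found, and each held 2 matches to the GC box GGGCGG. Both strands were searched for all 4 motifs, and matches could overlap. Of the 8 members with a window in the table, 4 held CAGAC (49.6% of all windows did), 4 held CANNTG (72.3%), 3 held TATAAA (13.6%) and 7 held GGGCGG (35.6%). A match describes these letters only. Fst and Smad2 are named without a sequence.

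The comparison asks whether the transcripts of this pathway change when muscle lacks Prmt7. Of the 10 genes, 1 had an FDR under 0.05 in the authors' deposited table: Fstl1 rose 1.77-fold in KO. The background was an FDR under 0.05 for 2.71% of all listed genes, with 1.01% higher and 1.7% lower. Smad3 was next, 1.36-fold lower in KO with an FDR of 0.088 in the same deposited table; the members called at an FDR under 0.1 were thus 2 of 10, against 3.65% of all genes. The FDR of the other 8 genes ran from 0.608 (Mstn) to 1 (Acvr2a and Smad2). The median log2 ratio of the 10 genes was 0.13, beside 0.01 for all listed genes.

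**Figure D1:**
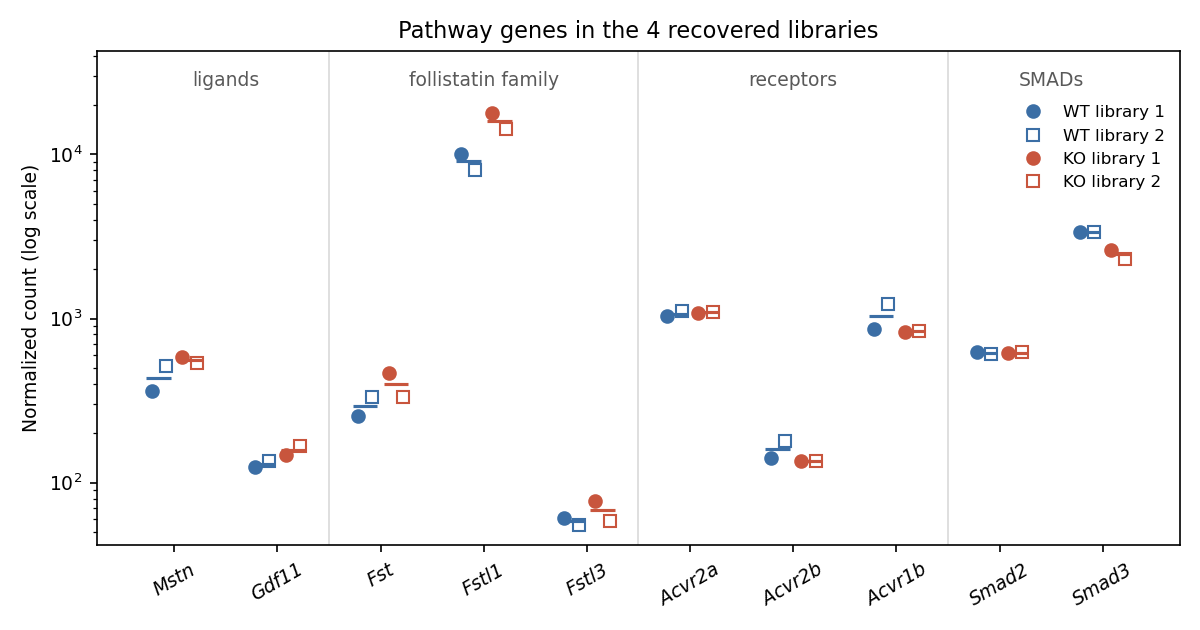
Normalized read count (log scale) of each pathway gene in the 4 recovered libraries; circles are library 1, squares library 2, and bars the mean of each genotype. Fstl1 is the highest of the 10 and lies between 14245 and 17830 in KO against 8093 to 10040 in WT, while Acvr2a and Smad2 sit at nearly the same height in both genotypes.

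Every member had a mean of at least 50 normalized counts, as had 12100 of the 14617 listed genes. Fstl3 was the lowest member and not far above that cutoff, with means of 58.1 in WT and 68 in KO. The libraries held 22629288 to 24814798 counts over the listed genes. Both KO libraries lay outside the range of the WT libraries for 6 of the 10 genes, 3 above it (Mstn, Gdf11, Fstl1) and 3 below it (Acvr2b, Acvr1b, Smad3). This share is close to the background: of the 12100 genes whose mean reached 50, 52.7% did the same, 24.6% above and 28.1% below. Xist stood at 10800 and 11546 in WT, in normalized counts, and at 2 and 1 reads in KO, so a difference of sex and the genotype cannot be told apart in any of these values. KO library 2 held 427 to 2824 normalized counts of the Y-linked genes Kdm5d, Uty, Eif2s3y and Ddx3y, and the other libraries 0, which allows up to 3 counts a library. KO library 1 thus held almost no Xist and 0 reads of these Y-linked genes, so its sex is unclear and the KO libraries differ from each other. Prmt7 itself had 885 and 844 normalized counts in WT and 706 and 718 in KO, with an FDR of 0.587 in the authors' deposited table. All 10 markers of skeletal muscle fibres were measured, as the tissue label has it, with sums of 2590904 to 3018914 in WT, against 3046789 to 3352275 in KO. Whether Prmt7 reads from the deleted part are among those counted is not known, so its value does not check the labels.

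Mstn, the ligand that gives the pathway its name (mm10 chromosome 1, 53061663 to 53068079), was counted at 360 and 513 in WT and at 583 and 539 in KO after normalization. The KO libraries were both above the WT libraries, but the nearest pair of opposite genotype differed by 1.05-fold, while the WT libraries differed from each other by 1.42-fold. Its log2 ratio is 0.36 in the authors' deposited table (FDR 0.608). A limma fit on log2 of the normalized counts plus 1, over all genes, put the difference at 0.38 ± 0.171 (SE) with a 95% interval of -0.02 to 0.79 and an adjusted p of 0.276. A difference of Mstn was therefore not detected, and the interval allows no change as well as a rise of up to 0.79 on the log2 scale. WT library 1 set much of the value: without it the log2 difference was 0.13, and without WT library 2 it was 0.64.

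Mstn is known to be most abundant in fast glycolytic fibres, and the fast myosin heavy chain genes Myh4 and Myh1 moved in opposite directions. Myh4 had 232372 and 277492 normalized counts in WT, and 444884 and 373640 in KO, and rose with an FDR of 0.0113 in the deposited table of the authors. Myh1 fell, with 252508 and 246042 in WT against 117179 and 110753 in KO (log2 ratio -1.13, FDR 8.08e-13 there). Per 1000 Myh4 counts, Mstn stood at 1.55 and 1.85 in the WT libraries and at 1.31 and 1.44 in the KO libraries. Per 1000 Myh1 counts it stood at 1.43 and 2.08 in WT, against 4.97 and 4.87 in KO. Relative to each of the 10 fibre markers, Mstn in KO was above the WT range for 3, below it for 3 and overlapping for 4, so the direction depended on the marker. The part of fibre composition in the Mstn level was not tested.

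Gdf11, the closest relative of myostatin (chromosome 10, 128884546 to 128891718), was expressed at a low level. It had 125 and 136 normalized counts in WT and 147 and 168 in KO. The genotypes did not overlap, but the exact Poisson 95% intervals, which cover counting error only, did: 114 to 162 for WT library 2 and 125 to 172 for KO library 1. The log2 ratio in the authors' deposited table is 0.27 (FDR 0.867), and limma gave a difference of 0.27 ± 0.172 (SE) with an adjusted p of 0.433.

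Fstl1 (chromosome 16, 37777055 to 37836516) was the only member past the authors' FDR. It had 10040 and 8093 normalized counts in WT and 17830 and 14245 in KO. The lower KO library was 1.42-fold above the higher WT library, whereas libraries of the same genotype differed by 1.24-fold in WT and 1.25-fold in KO. In the authors' deposited table its log2 ratio is 0.82, its p 0.000475 and its FDR 0.0244. The limma difference was 0.82 ± 0.176 (SE), with a 95% interval of 0.41 to 1.23, but its adjusted p was 0.0733, so the call did not hold in that test. There 0 of the 10 members had an adjusted p under 0.05, against 0.889% of 14053 genes; under 0.1 the members were Fstl1 and Smad3, against 4.65%. With 1 library left out limma gave adjusted p = 0.183 without WT library 1, 0.319 without WT library 2, 0.0921 when KO library 1 was left out and 0.0349 when KO library 2 was. The direction was the same in each, at a log2 difference of 0.66 to 0.98.

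**Figure D2:**
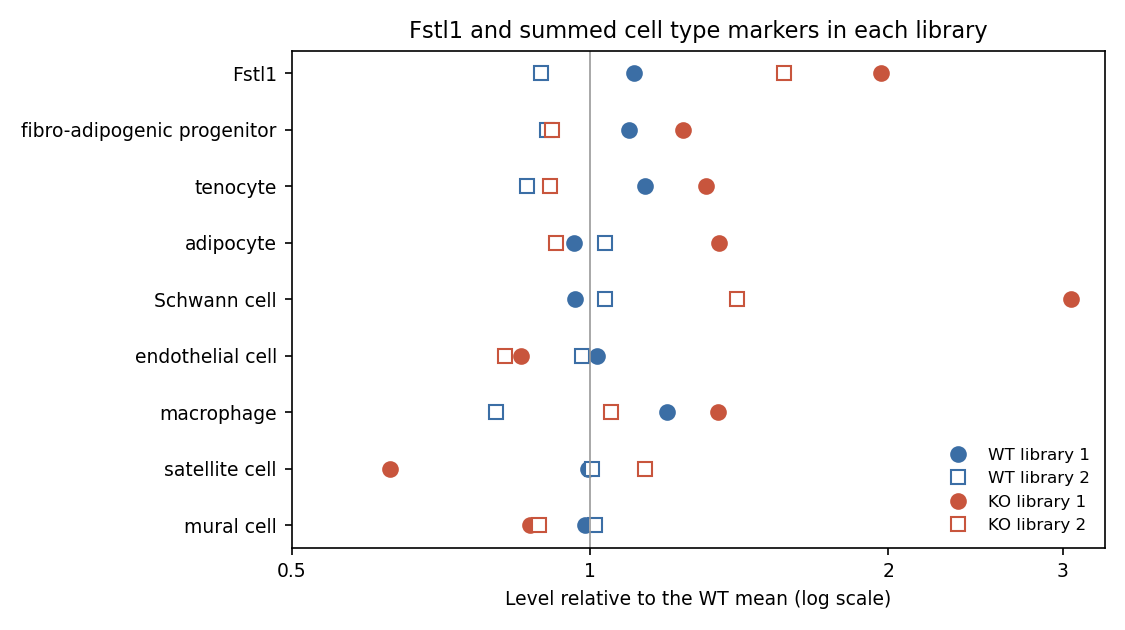
Fstl1 and the summed normalized counts of 8 lists of cell type markers, those of muscle fibres not drawn, in each library, divided by the mean of the WT libraries (log scale, 1 is the WT mean). For Fstl1 both KO libraries stand to the right of both WT libraries. Among the 8 marker sums drawn this holds for Schwann cells only, though Gsn and Thbs4 weigh heavily in the progenitor and tenocyte sums. KO library 1 lies highest for fibro-adipogenic progenitors, tenocytes, adipocytes, Schwann cells and macrophages.

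Fstl1 is known to be abundant in fibroblast-like cells. In whole muscle, more or fewer cells of a type cannot be told apart from more or less RNA per cell. The summed counts of 10 markers of fibro-adipogenic progenitors came to 101451 and 83927 in WT, against 115223 and 84920 in KO. These genotypes overlap, unlike those of Fstl1. Gsn, the highest of these markers in WT, had 37456 and 27538 normalized counts there and 36485 and 17890 in KO, and weighs heavily in the sums. Taken singly, 5 of the 10 markers lay above the WT range in both KO libraries and 1 below it. Among all genes with a mean of at least 50, 24.6% lay above and 28.1% below. Dpt, a matrix protein gene, passed the authors' FDR at 0.0185. Of 7 tenocyte markers 4 lay above the WT range, 0 below it and 0 passed, with sums of 17452 and 13256 in WT and 20129 and 13988 in KO. Thbs4, the highest of them in WT, had 9383 and 5530 there and 8674 and 4521 in KO. The 7 Schwann cell markers summed to 5561 and 5962 in WT and to 17616 and 8112 in KO, all 7 above the WT range and 0 past the FDR. The sums of 5 endothelial markers went the other way, at 31706 and 30621 in WT against 26544 and 25595 in KO, with Kdr past the FDR. No marker of these 4 lists was at 0 in all libraries, and the part of these cells in the Fstl1 result was not tested.

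Fstl1 was also set against each connective tissue marker of the same library. The ratio lay above the WT range in both KO libraries for 9 of 10 progenitor markers and 6 of 7 tenocyte markers, and overlapped for Mfap5, a microfibril protein gene, and Tnmd, tenomodulin. Per count of Mfap5 it was 4.7 and 5.63 in WT against 5.61 and 6.1 in KO, and per count of Tnmd 9.12 and 7.26 against 8.69 and 9.95. Per 100 counts of the progenitor markers it stood at 9.9 and 9.64 in WT and at 15.5 and 16.8 in KO. Per 100 counts of the tenocyte markers it stood at 57.5 and 61.1 in WT and at 88.6 and 102 in KO. Per count of Lum, the proteoglycan lumican, it stood at 1.57 and 1.44 in WT and at 2.15 and 1.92 in KO, and per count of the progenitor receptor Pdgfra at 6.08 and 5.65 against 7.36 and 8.88. The scaling of the libraries does not enter these ratios, and they carry no test. Fstl1 was followed up for its rise, so high ratios to markers that rose less follow largely from that choice. How often other genes give such ratios was not counted, and no conclusion on cell content is drawn from them.

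Fst, follistatin itself (chromosome 13, 114452262 to 114458730), did not separate the genotypes. It had 255 and 332 normalized counts in WT and 468 and 331 in KO, so that KO library 2 stood within the WT range and KO library 1 above it. The ratio on the log2 scale is 0.44 in the authors' deposited table (FDR 0.706). Limma gave 0.43 ± 0.203 (SE), with an interval of -0.05 to 0.92 and an adjusted p of 0.299. Without KO library 1 the difference was 0.19, and without KO library 2 it was 0.68. The ratio of Mstn to Fst counts within a library, ligand to antagonist, was 1.41 and 1.54 in WT, against 1.25 and 1.63 in KO, and these ranges overlap too.

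Fstl3, the other follistatin relative that binds activins and myostatin (chromosome 10, 79777274 to 79782630), had the lowest values of the 10. In WT it had 60.8 and 55.3 normalized counts, against 77.2 and 58.8 in KO, on 52 to 85 reads. The exact Poisson 95% intervals of the 4 libraries, 46.5 to 78.1 and 41.3 to 72.5 in WT and 61.6 to 95.4 and 44.5 to 76.2 in KO, all overlapped, and a difference was not detectable at this depth (FDR 0.955 in the authors' deposited table). In the GENCODE M21 annotation 59.2% of the exonic bases of Fstl3 are shared with Prss57 on the opposite strand. No source used here says whether the authors counted by strand, so reads of the 2 genes cannot be told apart there. The same holds for 7.84% of Acvr2a, shared with Orc4, and 4.06% of Fst, shared with the antisense gene Gm47040.

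The type II receptors did not differ beyond their spread. Acvr2a (chromosome 2, 48814109 to 48903264) had 1035 and 1106 normalized counts in WT and 1088 and 1091 in KO, with both KO libraries between the WT libraries. The limma difference was 0.03 ± 0.0956 (SE), and its 95% interval of -0.20 to 0.25 bounds a change of this receptor more tightly than that of most members. Acvr2b, the receptor for which myostatin has the higher affinity (chromosome 9, 119402501 to 119433506), had 141 and 180 normalized counts in WT and 136 and 135 in KO. The KO libraries lay below both WT libraries, though only 1.03-fold below the nearest one, and the FDR in the authors' deposited table was 0.902. Acvr2a outnumbered Acvr2b in read counts of every library, by 7.36 and 6.15 times in WT and by 7.99 and 8.08 times in KO, a ratio that does not account for transcript length. Mstn counts per Acvr2b count, ligand to receptor, were 2.56 and 2.85 in WT, against 4.28 and 3.99 in KO, without overlap and with no test. Neither gene passed the authors' FDR, and their log2 ratios have opposite signs (0.36 and -0.24), so this separation follows largely from the choice of pair. How often other pairs separate was not counted.

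Acvr1b, the type I receptor ALK4 (chromosome 15, 101174125 to 101212601), had 862 and 1220 normalized counts in WT and 827 and 841 in KO. The KO libraries agreed within 1.02-fold and stood just under WT library 1, at 1.02-fold, while WT library 2 was 1.42-fold above WT library 1. Its log2 ratio is -0.32 (FDR 0.826) in the authors' deposited table, and limma gave a difference of -0.30 ± 0.164 (SE) with an adjusted p of 0.372. Without WT library 2 the difference was -0.05, and without WT library 1 it was -0.55, so the size rested on WT library 2.

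**Figure D3:**
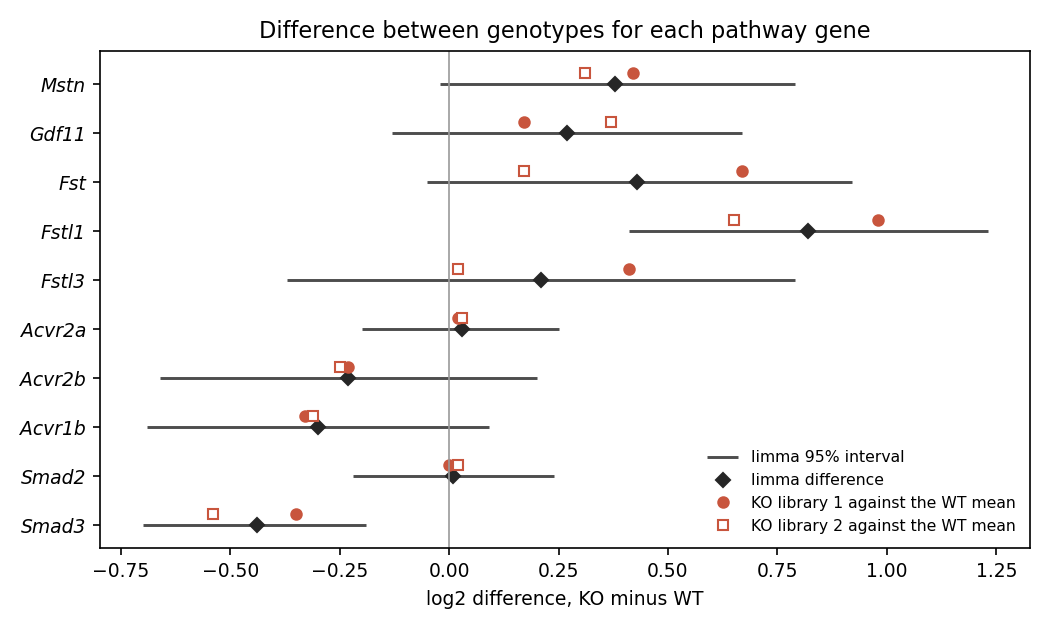
Difference between KO and WT for each pathway gene on the log2 scale: diamonds and lines are the limma estimate and its 95% interval, and red circles and squares the deposited-scale values of KO library 1 and 2 against the WT mean. The intervals of Fstl1 (0.41 to 1.23) and Smad3 (-0.70 to -0.19) lie to either side of 0, and those of the other 8 genes include it.

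Smad2 (chromosome 18, 76241701 to 76311747) was the steadiest member. It had 626 and 604 normalized counts in WT and 617 and 625 in KO. Limma placed the difference at 0.01 ± 0.098 (SE), with an interval of -0.22 to 0.24.

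Smad3 (chromosome 9, 63646767 to 63757994), the close relative of Smad2, showed another layout. Both WT libraries held 3345 normalized counts, and the KO libraries held 2623 and 2308. The higher KO library was 1.28-fold below the WT libraries, and the KO libraries differed from each other by 1.14-fold. In the authors' deposited table its log2 ratio is -0.44, its p 0.00303 and its FDR 0.088, which misses the threshold. Limma gave -0.44 ± 0.11 (SE), an unadjusted p of 0.00447 and an adjusted p of 0.0977. Within a library the ratio of Smad3 to Smad2 counts was 5.34 and 5.54 in WT and 4.25 and 3.69 in KO. This ratio does not depend on how the libraries were scaled, and its genotypes did not overlap. Smad2 was nearly level across the libraries, so the ratio largely repeats the fall of Smad3 and is no separate evidence for it. Smad3 and Fstl1 were the 2 of 10 members with an unadjusted p under 0.05 in the authors' deposited table, where 11.1% of all genes had one, and the same 2 in limma.

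Levels of different genes were compared per kilobase of the longest protein-coding transcript in GENCODE M21. Fstl1 led in both genotypes, at 2393 normalized counts per kilobase in WT and 4233 in KO, and Smad3 followed at 657 and 484. In WT the order went on with Acvr1b at 236, Acvr2a at 188, Mstn at 161, Fst at 104, Smad2 at 76, Acvr2b at 50.4, Gdf11 at 32.1 and Fstl3 at 29.7. Of the neighbours in this order, Acvr2a and Mstn overlapped between libraries, and so did Gdf11 and Fstl3; for the other 7 neighbouring pairs the ranges of the WT libraries were separate. In KO, Mstn and Acvr1b had changed places, at 207 and 189 per kilobase, with Acvr2a between them at 192. The other 8 genes held the same place in both genotypes.

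Beyond these members, 86 further genes of the wider TGF-beta superfamily were listed in 8 groups by role, some in more than 1, of which 76 were in the table. Of them 2 rose and 0 fell by the authors' FDR; 2.63% passed, against 2.71% of all listed genes. The group medians of the log2 ratio ran from -0.07 to 0.14. Both KO libraries lay outside the WT range for 41.2% of the 68 such genes with a mean of at least 50, against 52.7% of all genes at that level.

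**Figure D4:**
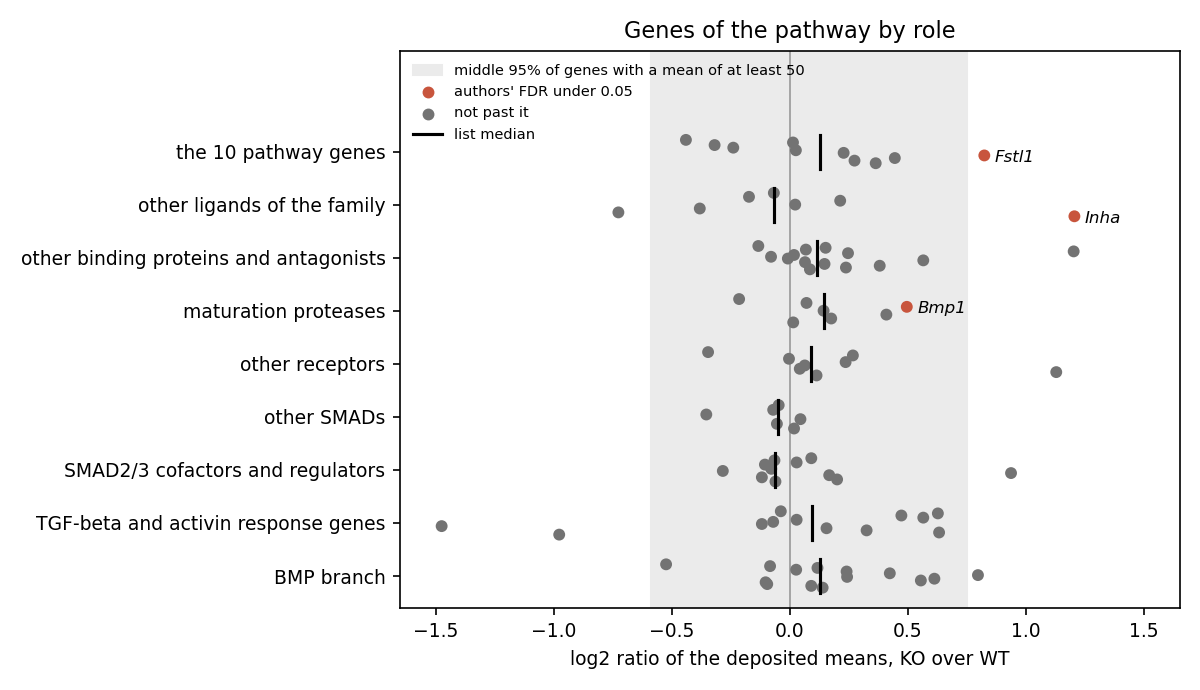
Log2 ratio of the deposited means, KO over WT, for each measured gene of the pathway by role, with the median of each list as a black bar and genes past the authors' FDR in red; the grey band holds the middle 95% of genes whose mean reached 50, from -0.59 to 0.75. Fstl1, Inha and Bmp1 are the 3 red points, all to the right of 0, and the list medians lie between -0.07 and 0.14.

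Among 7 measured ligands outside the members, 1 rose and 0 fell, with a median of -0.07. Inha, the alpha subunit that turns activin subunits into inhibin, an antagonist of activin (chromosome 1, 75507077 to 75510354), rose 2.3-fold. It had 214 and 306 normalized counts in WT and 538 and 662 in KO, with no overlap, and an FDR of 0.000967 in the authors' deposited table. Limma gave 1.22 ± 0.193 (SE) with an adjusted p of 0.0524, just over the threshold. Tgfb2 had a log2 ratio of 0.21, Inhbb, the beta B subunit of activin B, one of -0.38, and Tgfb3 one of -0.17, none of them past the FDR.

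Of 7 proteases that mature the precursors, 1 rose and 0 fell, with a median of 0.14. Bmp1, a tolloid metalloproteinase that can cut the propeptide of myostatin and also procollagens (chromosome 14, 70474555 to 70520260), rose 1.41-fold. It had 1790 and 1980 normalized counts in WT, against 2778 and 2534 in KO, and its FDR in the authors' deposited table is 0.0347. Limma gave 0.49 ± 0.108 (SE) with an adjusted p of 0.0763. Furin, the convertase that makes the earlier cut, stood at 1593 and 1591 in WT and 1670 and 1545 in KO. Pcsk6 went from 1338 and 1104 to 1917 and 1324 and Tll1 from 146 and 132 to 163 and 128, each with overlap. Bmp1 is also known from connective tissue cells, whose marker sums are given beside Fstl1; their part in its value was not tested.

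None of 14 measured binding proteins and antagonists passed, at a median of 0.12. Dcn, the proteoglycan decorin, which binds TGF-beta and myostatin, had 23089 and 22411 normalized counts in WT and 32155 and 27062 in KO (FDR 0.147 in the authors' deposited table). Bambi, a pseudoreceptor, had a log2 ratio of 0.25, and Lrrc32 and Ltbp4, which hold latent TGF-beta, had -0.13 and -0.08. Of 8 other receptors 0 passed, at a median of 0.09. Bmpr2, the type II receptor for BMPs, had 3071 and 2921 in WT and 2522 and 2190 in KO, without overlap and with an FDR of 0.282, whereas Bmpr1a stood at 2671 and 2767 against 2766 and 2657.

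Of the 6 other SMADs 0 passed, and their median was -0.05. Smad5 and Smad1 of the BMP arm had log2 ratios of 0.04 and 0.02, and the inhibitory Smad6 and Smad7, which pathway activity is known to induce, had -0.35 and -0.07. Among 12 cofactors and regulators of SMAD2 and SMAD3, 0 passed at a median of -0.06. Tgif2, a SMAD corepressor, came nearest, with 59.8 and 81.9 normalized counts in WT and 130 and 141 in KO (FDR 0.087 in the authors' deposited table). The corepressor Ski had 0.20, the ubiquitin ligase Smurf1 -0.28 and Skil -0.12.

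The 12 genes known to respond to TGF-beta or activin gave no common direction: 7 had a ratio above 0 and 5 below it, at a median of 0.09, and 0 passed. Ctgf, a matricellular protein gene, had 573 and 526 normalized counts in WT and 972 and 732 in KO, and Fn1, fibronectin, 10287 and 6607 against 16712 and 9364. The median of this list was 0.37 for KO library 1 against the WT mean and -0.11 for KO library 2, so the KO libraries did not share a direction. In the BMP branch, 0 of 14 measured genes passed and the median was 0.13. Nog, a BMP antagonist, had a log2 ratio of 0.61, and the lowest ratios were those of Hdac4 (-0.52), a repressor in muscle responses to denervation, and Bmp6 (-0.10).

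The authors also deposited a table of 608 upstream regulators scored by the Ingenuity program from genes with a log ratio beyond 0.95 in size. Of the 10 members SMAD3 alone is listed among them. The authors' deposited table gives SMAD3 an activation z-score of -0.10 over 9 targets, with an overlap p of 0.012 and no predicted state. TGFB1 has the lowest overlap p of the pathway names looked for, 3.62e-21 over 62 targets in that deposited table, with a z-score of -0.81 and no predicted state. In the same authors' deposited table INHA is marked as inhibited at a z-score of -2.42 over 6 targets, with an overlap p of 0.0489. SKI is marked there as activated at 2.18 over 5 targets, with an overlap p of 5.49e-05. SMAD4 has -1.99 there with no state, and its overlap p of 0.182 is not under 0.05. Inha itself rose in KO by its transcript level.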

How the data were processed

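Total RNA of frozen muscle was extracted with Trizol and sequenced, per the labels' protocols, on build mm10 per the submitters' processing notes. No source used here gives the aligner, counter, annotation or filter. The authors deposited 1 gene table with a mean signal per genotype (read counts divided by a factor per library), a p-value, a log2 ratio and an FDR, made with DESeq per the table's name. They also deposited Ingenuity tables with an activation score and a p-value of overlap; 1 line of the gene table is not used here. Each mean was solved for whole counts of 2 libraries (tolerance 1e-13 of the value), which gave exactly 1 solution for all 14617 genes; library 1 is the one with the larger factor. In WT the factors came to 1.00269 and 0.940389, in KO to 1.10132 and 0.969712.

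The main test is the authors' FDR under 0.05. The second fit is limma 3.58.1 in R 4.3.3 on log2(normalized count + 1), for 14053 genes whose mean reached 10, with trend and robust moderation, KO minus WT, two-sided, Benjamini-Hochberg adjusted, with 2 residual degrees of freedom. The pseudocount understates the change of low genes. The libraries cannot be tied to individual mice, so p-values reflect only the spread among them. In KO only library 2 held reads of Y-linked genes, a difference that repeats of the same sample would not show. Whether the spread in WT is technical is not known. The recovery and the limma fit were each tested on simulated counts with known answers. Of each wider list, genes past the FDR and the 2 highest and 2 lowest ratios at a mean of at least 50 are named, except some that are not reported here. Members and lists were chosen with earlier results of these data known.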

Additional observations from a re-analysis of the deposited data

How the results depend on the processing

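For the 10 members, 1 gene passed the authors' FDR under 0.05 and 2 passed under 0.1, Smad3 being the gene added at a log2 ratio of -0.44. In limma 0 members had an adjusted p under 0.05 with the settings as given, with a pseudocount of 5, without the filter on low counts, with library totals or the upper quartile as the scaling, and without robust moderation; 2 members had an unadjusted p under 0.05 in the fit as given. Leaving out 1 library gave 0 to 1, the 1 being Fstl1 without KO library 2. All-gene calls were 125 in limma as given, 100 to 140 with another pseudocount, filter or scaling, 27 without robust moderation, and 11 (without WT library 1) to 360 (without KO library 2) with 1 library left out. Of the wider pathway genes 2 passed in the authors' table, against 0 in limma, 0 with a pseudocount of 5, 1 without the filter, 1 with library totals, 0 with the upper quartile, 0 without robust moderation and 0 to 2 with 1 library left out. The cause of the lower counts was not tested.

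For Fstl1 the log2 difference stayed between 0.82 and 0.87 in the limma settings with all libraries, with adjusted p from 0.0689 to 0.0836. For Smad3 it stayed between -0.44 and -0.39 in these settings, with limma adjusted p from 0.0959 to 0.152, the highest with library totals as the scaling. Leaving out 1 library turned the sign of Acvr2a (-0.02 to 0.07) and Smad2 (-0.01 to 0.04), both near 0; the sign of the other 8 members was the same in all 11 alternatives. Scaling to library totals moved the median of all genes to 0.05 and the upper quartile to 0.04, and 7 and 9 members in place of 6 then had both KO libraries outside the WT range, against 52.2% and 53.1% of the 12100 genes under these scalings. With merged exon lengths all 10 members held the same place in the WT order per kilobase, and in KO Acvr2b and Gdf11 swapped. No paired analysis was possible because the libraries carry no replicate number and the labels give none that pairs mice. Counts of 52 to 85 reads limit what can be said of Fstl3.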

Other observations

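Acvr1c, the type I receptor ALK7, which is known chiefly from fat cells, had 41.9 and 31.9 normalized counts in WT, 134 in KO library 1 and 26.8 in KO library 2 (log2 ratio 1.13, FDR 0.912 in the authors' deposited table). KO library 1 alone stood apart. The adipocyte hormone gene Adipoq showed the same layout, with 265 and 284 in WT, 1089 in KO library 1 and 306 in KO library 2. So did Cfd, the fat cell protease adipsin, with 1051 and 1069 in WT and with 4067 and 963 in KO, and Plin1, which coats lipid droplets, with 145 and 105 in WT and with 380 and 79.4 in KO. The 7 adipocyte markers summed to 16425 and 17662 in WT and to 23023 and 15742 in KO. Most of each sum is Fabp4, which had 14723 and 15892 in WT and 16581 and 14225 in KO. The part of fat cells in the Acvr1c value was not tested.

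Of 5 satellite cell markers 4 were lowest in that same library, and Vcam1 was not, with 296 and 291 in WT, 326 in KO library 1 and 440 in KO library 2. Pax7, the defining transcription factor of muscle stem cells, had 178 and 203 normalized counts in WT, 52.7 in KO library 1 and 212 in KO library 2. Calcr, the calcitonin receptor of quiescent satellite cells, had 54.9 and 65.9 in WT and 5.45 and 57.7 in KO. Cdh15 had 670 and 613 in WT, against 388 and 663 in KO. Myf5 had 111 and 149 in WT and 55.4 and 121 in KO. No marker of this list passed the authors' FDR, and the values are a description of these libraries.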
